A study of Mus musculus with 6 samples.

Results

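Natural killer (NK) receptor genes and the genes of cytotoxic granules are described here in RNA from 5-fluorouracil-treated mice given an elemental diet or saline. The set held the 26 protein-coding genes whose names begin with Klra to Klrk and a number, together with Ncr1, Gzma, Gzmb, Gzmk, Prf1 and Nkg7. These 32 genes were chosen by name and biotype, not by their values, out of 41325 gene rows. The series held 6 bulk RNA-seq libraries, 3 per group, all from female ICR mice, an outbred stock, bought at 10 weeks of age. In the elemental diet group, each mouse received the antimetabolite 5-fluorouracil (5-FU) into the peritoneum, at 20 mg/kg on each of 2 days a week over 3 weeks. By gavage it received 0.8 mL of elemental diet a day, worth 1.6 kcal, given 2 times a day on 5 days a week over the same weeks. An elemental diet supplies nitrogen mainly as free amino acids. In the saline group, mice had the same 5-FU injections and the same volume of saline on the same gavage schedule. Both groups had 5-FU, so no library came from an untreated mouse. The labels give 3 mice per group but do not tie each library to its own mouse, and the p-values below therefore speak only of spread among libraries, which may be technical.

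NK cells kill infected or transformed cells by releasing perforin, which forms pores in the target membrane, and granzymes, proteases that enter through them. Whether they fire is set by a balance of activating and inhibitory receptors, many of them lectin-like proteins encoded by Klr genes in the NK gene complex of mouse chromosome 6. Inhibitory members read MHC class I or related molecules on healthy cells, and activating members read stress-induced or viral ligands. Cytotoxic CD8 T cells use the same granule proteins and carry several of the same receptors, so most of these genes are not exclusive to NK cells. The Ly49 (Klra) gene content is known to differ between mouse strains, and the read counts were made on genes of the C57BL/6J reference.

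The libraries held 29053287 to 33073125 reads assigned to genes, and 3 reads, the most that a library with no read for a gene allows, came to 0.0867 to 0.117 CPM (reads scaled to a common library size with edgeR's TMM factors), which covers counting error only. The labelled tissue is salivary gland, yet of 9 gland markers 4 (Smgc, Pip, Bpifa1 and Prb1, saliva proteins) had no read in any library, and Aqp5, the acinar water channel, had 4 reads in elemental diet samples and 2 in saline samples. Markers of blood cells were abundant and differed between the groups. The summed level of 6 B cell markers was 655 to 705 CPM with elemental diet and 4674 to 4850 CPM with saline, that of 6 erythroid markers 35236 to 35859 and 2198 to 3435 CPM, and that of 12 T cell markers 85.1 to 95.8 and 588 to 735 CPM. Summed levels of 6 neutrophil markers were 180 to 212 CPM with elemental diet, against 3.05 to 4.29 CPM in saline libraries. Those of 6 proliferation markers were 3765 to 4480 CPM with elemental diet, against 122 to 129 CPM in saline libraries. Reads in introns made up 8.39% to 8.82% of each elemental diet library and 13.7% to 14.4% of each saline library. Their part in the results below was not tested, and in bulk RNA fewer cells of a type and less RNA per cell cannot be told apart.

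Of the 32 NK receptor and cytotoxic genes, 30 were lower on average with elemental diet than with saline, by very unequal amounts. The exceptions were Klra17 and Klrg2, which averaged 0.864 and 0.813 CPM with elemental diet, against 0.489 and 0.784 CPM in saline libraries, and neither was called. Summed over the 32 genes, the elemental diet libraries held 995, 1114 and 891 reads, against 4877, 4729 and 4974 reads in the saline libraries. Of the 32 genes 26 had enough reads for the test, and 19 of these fell, 0 rose and 7 were not called (edgeR quasi-likelihood test, two-sided, Benjamini-Hochberg adjusted p under 0.05 over 18303 genes). Among all genes tested 40.2% were called lower and 38.0% higher, 78.1% in all, so a call in itself is common here: 73.1% of the 26 were called. The median log2 fold change was -1.47 for the 26 and -0.08 for all genes tested. Without composition scaling 22 fell, where 50.6% of all genes were called lower and 80.2% in either direction, and with upper quartile scaling 22 fell as well, against 49.5% and 80.1%. No gene of the set had an unadjusted p under 0.05 for a rise (0 genes), and DESeq2 called 0 higher as well. Groups did not overlap, with elemental diet lower, in 21 of the 26 (80.8%), against 41.9% of all genes tested, and with elemental diet higher in 0 of the 26, against 39.0%. These counts describe the tested genes only: a gene read mainly in saline could pass the filter on low counts through that group alone. Klra6, Klrc3 and Gzmk were among those that did. They had 5, 11 and 9 reads in all with elemental diet, against 73, 70 and 81 with saline. Each is counted in the 19 that fell and in the 21 without overlap. The 6 untested genes (Klrb1, Klra3, Klra5, Klra8, Klra9 and Klra10) were each lower on average with elemental diet, at 3 to 17 reads per group with elemental diet and 18 to 38 with saline.

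**Figure D1:**
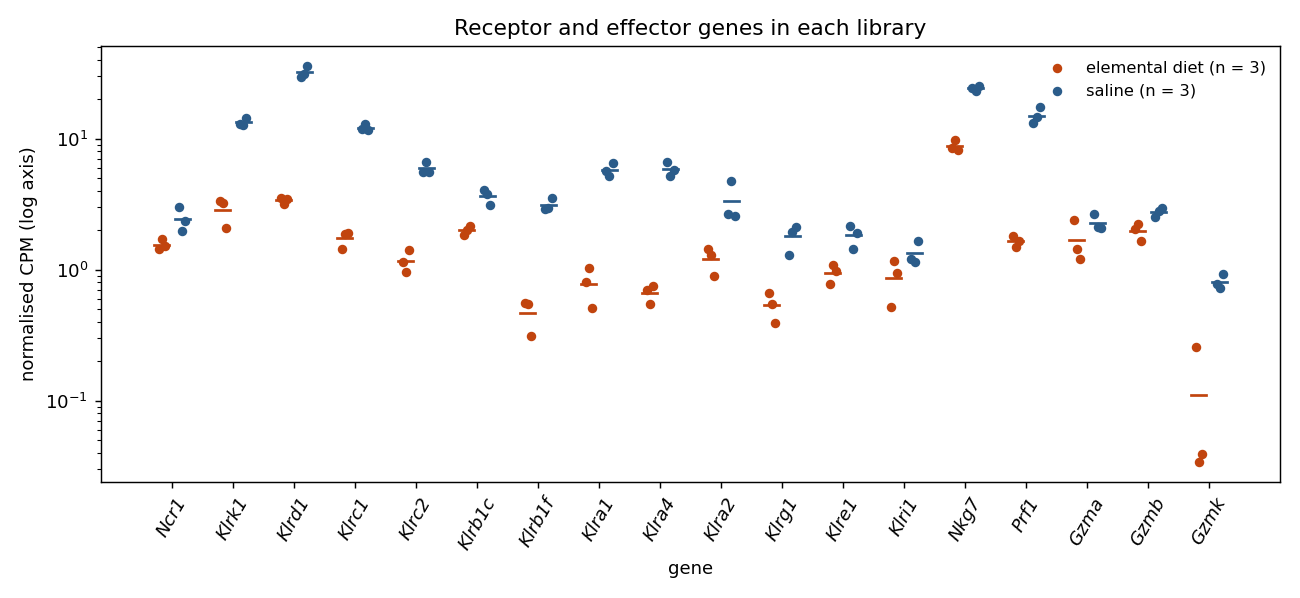
Normalised CPM (log axis) of 18 genes in each library, elemental diet (n = 3) left and saline (n = 3) right for each gene; points are libraries and lines are group means. The groups lie far apart for Klrd1 and Prf1 (means of 3.38 and 1.65 CPM with elemental diet, 32.3 and 15.0 CPM in saline libraries), and close together for Gzma and Gzmb (1.68 and 1.98 with elemental diet, 2.27 and 2.77 with saline).

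The size of the fall ran over a wide range. Of the 19 genes that fell, 3 were less than 2-fold lower (Ncr1, Klrb1c and Klre1), 5 were 2-fold to 4-fold lower and 7 were 4-fold to 8-fold lower. The remaining 4, Klrd1, Prf1, Klra4 and Klra6, were between 8.83-fold and 11.2-fold lower. These bands are of total gene reads, and on exon reads some genes change band. The log2 fold change of Klra4 was -2.58 on exon reads, against -3.14 on total reads. That of Klre1 was -1.49 on exon reads, against -0.95 on total reads. The deposited TPM values, which are per length of exon and so compare genes, gave the order of levels within each group. Nkg7 was highest in both groups, at 25.1 ± 2.02 TPM with elemental diet and 90.1 ± 2.53 TPM with saline (SD, n = 3). With elemental diet Gzma (4.0 ± 1.7 TPM), Klrd1 (3.65 ± 0.176 TPM) and Gzmb (3.58 ± 0.651 TPM) came next and did not differ beyond their spread. With saline Klrd1 (39.4 ± 1.79 TPM), Prf1 (19.7 ± 2.44 TPM) and Klrc1 (13.9 ± 0.480 TPM) came next, each apart from its neighbour by more than the spread. Klrd1 therefore took 6.91% ± 0.39 of the summed TPM of the 32 genes with elemental diet and 17.4% ± 0.43 with saline, while Gzma took 7.51% ± 2.97 and 3.24% ± 0.50.

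**Figure D2:**
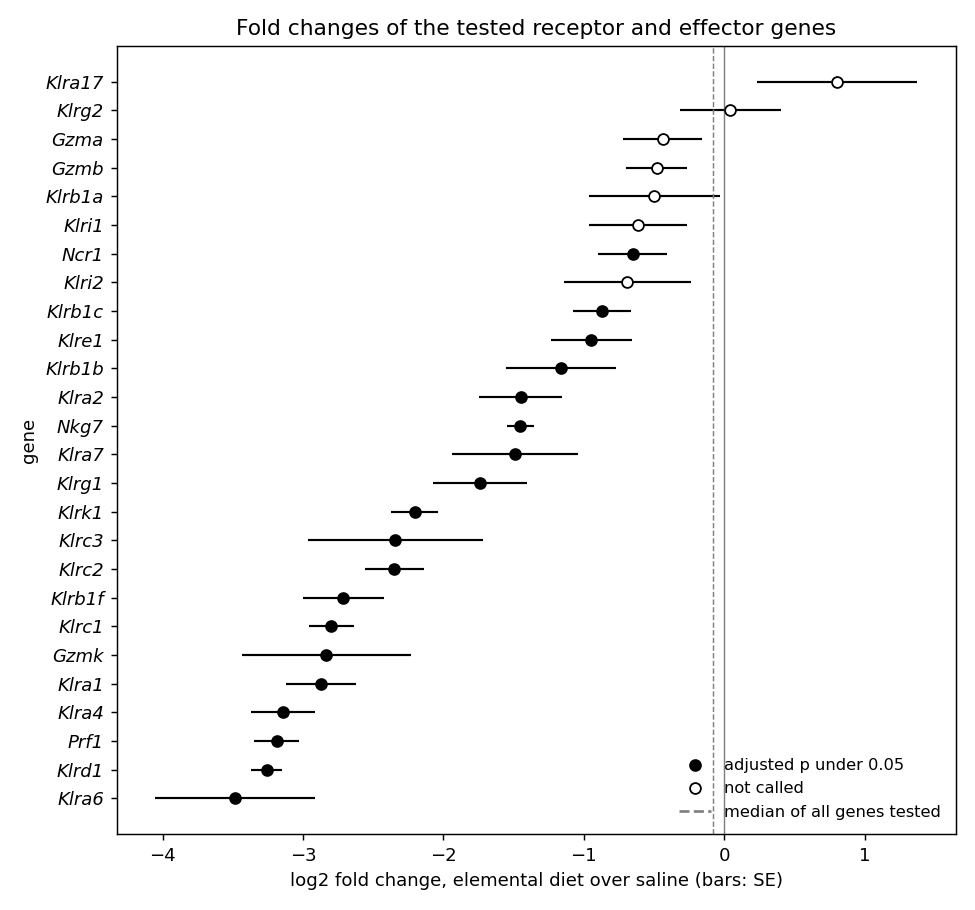
Log2 fold changes (elemental diet over saline, bars SE) of the 26 tested genes, ordered by size; filled points have an adjusted p under 0.05 and open points do not, and the dashed line is the median of all genes tested (-0.08). Values run from 0.80 for Klra17 to -3.49 for Klra6, which had 5 reads in all with elemental diet.

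Sequence before the start sites is shown for a pair of genes that fell strongly, Prf1 and Klrc1, and a pair that differed less, Ncr1 and Gzmb. Of the latter pair Ncr1 was called lower (log2 fold change -0.65) and Gzmb was not called (-0.48). RefSeq promoter windows (GRCm38.p6, 250 bases before to 50 after the start) were found for 29 of the 32 genes. Capitals mark the letters TGTGGT or their reverse complement, the core bound by RUNX factors, of which RUNX3 is known for its role in NK and CD8 T cells. Only windows that hold these letters were printed, so their presence below is by choice.
Prf1 (chr10:61297586-61297885, plus strand): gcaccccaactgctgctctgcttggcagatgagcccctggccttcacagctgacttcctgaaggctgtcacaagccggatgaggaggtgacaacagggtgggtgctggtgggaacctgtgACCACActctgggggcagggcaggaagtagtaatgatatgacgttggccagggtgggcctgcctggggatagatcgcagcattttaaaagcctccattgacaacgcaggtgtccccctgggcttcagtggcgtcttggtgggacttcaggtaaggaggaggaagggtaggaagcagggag
Klrc1 (chr6:129678924-129679223, minus strand): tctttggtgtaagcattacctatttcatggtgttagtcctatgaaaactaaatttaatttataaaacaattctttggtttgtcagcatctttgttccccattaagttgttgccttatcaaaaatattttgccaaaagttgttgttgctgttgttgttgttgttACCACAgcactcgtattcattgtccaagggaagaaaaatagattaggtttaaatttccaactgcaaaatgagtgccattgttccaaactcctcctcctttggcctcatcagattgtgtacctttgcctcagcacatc
Ncr1 (chr7:4337465-4337764, plus strand): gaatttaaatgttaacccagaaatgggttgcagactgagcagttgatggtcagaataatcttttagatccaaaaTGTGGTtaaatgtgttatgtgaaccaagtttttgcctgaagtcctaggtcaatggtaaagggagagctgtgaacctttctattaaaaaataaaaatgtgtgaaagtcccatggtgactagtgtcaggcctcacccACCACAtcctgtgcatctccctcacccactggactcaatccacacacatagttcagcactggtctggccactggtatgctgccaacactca
Gzmb (chr14:56262285-56262584, minus strand): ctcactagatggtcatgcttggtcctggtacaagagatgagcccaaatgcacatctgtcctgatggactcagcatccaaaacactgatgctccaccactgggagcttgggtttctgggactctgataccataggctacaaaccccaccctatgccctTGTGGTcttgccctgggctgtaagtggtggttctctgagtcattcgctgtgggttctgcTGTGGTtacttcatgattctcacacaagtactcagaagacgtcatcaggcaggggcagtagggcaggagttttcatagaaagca
The RUNX letters were found, on either strand, in the windows of 13 of the 29 genes (44.8%) and of 18.9% of all 27025 genes in the table. Windows of the 13 are not independent of each other. Those of Klrc2 and Klrc3 matched at 85.3% of 300 bases, and those of Klrb1a and Klrb1c at 78.7%. The T-box core AGGTGT was found in 5 of the 29 (17.2%) and in 15.7% of all genes, and the AP-1 letters TGANTCA in 5 (17.2%) and in 8.97%. In the windows printed no RUNX match overlapped either of the other motifs. Of the 13 genes with the RUNX letters 10 fell and 3 (Gzma, Gzmb and Klrb1a) were not called, where 73.1% of the 26 tested genes of the set fell. Klra4 and Klra6, which fell strongly, had windows without the letters, and no window was found for Klrd1. A match of letters is a description and was not tested as a binding site.

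Ncr1, which encodes the activating receptor NKp46 found mainly on NK cells and group 1 innate lymphoid cells, was only modestly lower. It stood at 1.43, 1.70 and 1.52 CPM in the elemental diet libraries, against 3.00, 1.98 and 2.34 CPM in the saline libraries. All 3 elemental diet libraries were below the lowest saline library, by a small margin. The gene (ENSMUSG00000062524, GRCm38 chromosome 7, 4337724 to 4345164) had a log2 fold change of -0.65 (standard error 0.25, edgeR adjusted p = 0.0266). This call was lost with DESeq2 (adjusted p = 0.0686) and without saline replicate 1 (0.125), elemental diet replicate 1 (0.0597) or elemental diet replicate 3 (0.0580), over a range of 0.00310 to 0.125 among its 14 alternatives.

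Klrk1, which encodes NKG2D, an activating receptor for stress-induced ligands on NK cells and CD8 T cells, fell further. Its levels were 3.34, 3.20 and 2.07 CPM with elemental diet, against 12.8, 12.7 and 14.4 CPM with saline. The lowest elemental diet library was replicate 3, and the groups were far apart (log2 fold change -2.20, standard error 0.17, edgeR adjusted p = 2.91e-08).

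The CD94/NKG2 genes fell together. Klrd1 encodes CD94, the shared chain that pairs with the NKG2 proteins, and lies on chromosome 6 at 129591782 to 129598775. It had 3.49, 3.16 and 3.48 CPM with elemental diet, against 29.6, 31.4 and 36.0 CPM with saline. Its elemental diet libraries were nearly alike, and its adjusted p was the lowest of the set (log2 fold change -3.26, standard error 0.11, edgeR adjusted p = 3.66e-12). Klrc1, the inhibitory partner NKG2A, had 1.43, 1.87 and 1.92 CPM with elemental diet, against 11.9, 12.9 and 11.6 CPM with saline (log2 fold change -2.80, standard error 0.16, edgeR adjusted p = 1.05e-09). Klrc2, the activating partner NKG2C, had 1.14, 0.953 and 1.41 CPM with elemental diet, against 5.58, 6.67 and 5.57 CPM with saline (log2 fold change -2.35, standard error 0.21, edgeR adjusted p = 1.66e-07). No elemental diet library reached a saline library for either. Klrc3, which encodes NKG2E, had 0, 5 and 6 reads with elemental diet and 26, 22 and 22 with saline, and fell as well (log2 fold change -2.34, edgeR adjusted p = 0.00362). Of the Klrc1 reads 88.1% with elemental diet and 79.6% with saline were unique to it, and of the Klrc2 reads 86.3% and 86.6%, so part of each count is shared with close paralogs. Counted on unique reads the log2 fold changes were -2.69 for Klrc1 and -2.39 for Klrc2.

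The NKR-P1 genes (Klrb1 family), which encode lectin-like receptors for Clec2 ligands, did not move by the same amount. Klrb1c, the activating receptor NK1.1 used as an NK cell marker in C57BL/6 mice, had 1.84, 2.01 and 2.15 CPM with elemental diet, against 4.07, 3.78 and 3.11 CPM with saline. The groups stood apart and the fall was under 2-fold (log2 fold change -0.87, standard error 0.21, edgeR adjusted p = 0.00155). Klrb1f had 0.551, 0.544 and 0.313 CPM with elemental diet, against 2.92, 2.94 and 3.51 CPM with saline, a 6.56-fold fall (edgeR adjusted p = 9.75e-07). Klrb1b, an inhibitory member, fell 2.24-fold (edgeR adjusted p = 0.0149), but 0% of its reads with elemental diet and 5.88% with saline were unique, and both it and Klrb1c overlap the predicted gene Gm44511. Its count is therefore uncertain: it could not be tested on unique reads, and its call was lost on exon reads (adjusted p = 0.0589) and without elemental diet replicate 1 (0.0625) or saline replicate 2 (0.0594). Klrb1a, with 27 reads after elemental diet and 47 after saline, was not called (adjusted p = 0.343). Klrb1 had 3 reads after elemental diet and 30 after saline, a ratio of 0.122 after scaling for library size with a 95% exact counting interval of 0.0239 to 0.393.

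Of the 11 Ly49 (Klra) genes 6 could be tested, and 5 of these fell, where 40.2% of all genes tested were called lower. The pair with most reads was Klra1, which encodes the inhibitory receptor Ly49A, and Klra4, which encodes the activating receptor Ly49D. Klra1 had 0.809, 1.02 and 0.508 CPM with elemental diet, against 5.66, 5.23 and 6.46 CPM with saline. Klra4 had 0.698, 0.544 and 0.743 CPM with elemental diet, against 6.59, 5.17 and 5.79 CPM with saline. No elemental diet library reached a saline library for either, and the log2 fold changes were -2.87 (standard error 0.25, edgeR adjusted p = 1.07e-07) and -3.14 (standard error 0.23, edgeR adjusted p = 1.47e-08). Of the Klra4 reads 57.4% with elemental diet and 73.1% with saline lay in introns, and of the Klra1 reads 46.2% and 56.7%. On exon reads the log2 fold changes were -2.66 for Klra1 and -2.58 for Klra4. Klra6, the inhibitory Ly49F, had 2, 1 and 2 reads with elemental diet and 31, 20 and 22 with saline (log2 fold change -3.49, standard error 0.57, edgeR adjusted p = 7.18e-05). The counting interval of its ratio ran from 0.0264 to 0.204. It passed the filter on low counts through the saline libraries alone. Klra7, the inhibitory Ly49G, had 15, 5 and 8 reads with elemental diet and 26, 34 and 37 with saline, and its call (edgeR adjusted p = 0.00767) was lost on exon reads (adjusted p = 0.223). Klra8, the activating Ly49H known to recognise a protein of mouse cytomegalovirus, had too few reads to be tested, with 17 after elemental diet and 38 after saline.

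A pair of Ly49 genes is known from myeloid and plasmacytoid dendritic cells, and the difference between their fold changes was not tested. Klra2, which encodes Ly49B, an inhibitory receptor of myeloid cells, had 1.43, 1.29 and 0.899 CPM with elemental diet, against 2.66, 4.72 and 2.59 CPM with saline. Saline replicate 2 was well above the other saline libraries, and the groups did not overlap (log2 fold change -1.45, standard error 0.29, edgeR adjusted p = 4.76e-04). All 6 neutrophil markers rose, where 38.0% of all genes tested were called higher, and their part in the Klra2 level was not tested. Klra17, which encodes Ly49Q of plasmacytoid dendritic cells, was not called (log2 fold change 0.80, standard error 0.57, edgeR adjusted p = 0.214). It had 20, 27 and 24 reads with elemental diet and 33, 14 and 3 with saline, so its saline libraries spread more than the groups differed. Without saline replicate 1 it would be called higher (log2 fold change 1.71, adjusted p = 0.0211). Of 5 plasmacytoid dendritic cell markers 4 fell and 1 rose, where 40.2% of all genes tested were called lower and 38.0% higher, 78.1% in all. The 1 that rose was Siglech, the surface lectin that marks plasmacytoid dendritic cells (log2 fold change 0.98, edgeR adjusted p = 0.00295). Over the 5 markers the median log2 fold change was -1.13, with -2.22 for the largest fall. Their summed level was 146 to 165 CPM with elemental diet, against 440 to 468 CPM with saline. The part of plasmacytoid dendritic cells in the Klra17 level was not tested.

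The other Klr genes were low. Klrg1, an inhibitory receptor of effector NK and T cells that binds cadherins, had 0.662, 0.544 and 0.391 CPM with elemental diet, against 1.30, 1.95 and 2.12 CPM with saline (log2 fold change -1.74, standard error 0.34, edgeR adjusted p = 3.22e-04). Every elemental diet library lay below every saline library. Klre1, a chain that pairs with Klri1 or Klri2, had 0.772, 1.09 and 0.977 CPM with elemental diet, against 2.14, 1.44 and 1.91 CPM with saline (log2 fold change -0.95, standard error 0.29, edgeR adjusted p = 0.00824). Its partner Klri1 had 0.515, 1.16 and 0.938 CPM with elemental diet, against 1.21, 1.14 and 1.66 CPM in saline libraries, and was not called (adjusted p = 0.122), though it was called lower with upper quartile scaling (0.031) and without composition scaling (0.0255). The Klri1 groups overlapped, and 77.8% of its reads with elemental diet and 88.1% with saline lay in introns. Klri2 (adjusted p = 0.177) and Klrg2 (0.917) were not called either, and the direction of Klrg2 turned with the scaling (log2 fold change 0.04 with TMM, -0.26 without composition scaling).

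The effector genes split into those that fell strongly and those that did not. Prf1, which encodes perforin, had 1.80, 1.5 and 1.64 CPM with elemental diet, against 13.1, 14.6 and 17.3 CPM with saline. The groups were 9.10-fold apart (log2 fold change -3.19, standard error 0.16, edgeR adjusted p = 2.65e-10). Nkg7, a granule membrane protein of cytotoxic cells, had 8.53, 9.73 and 8.25 CPM with elemental diet, against 24.2, 23.1 and 25.3 CPM with saline (log2 fold change -1.45, standard error 0.10, edgeR adjusted p = 5.15e-09). Gzmk, a granzyme known mainly from T cells, had 7, 1 and 1 reads with elemental diet and 27, 24 and 30 with saline (log2 fold change -2.83, standard error 0.60, edgeR adjusted p = 6.92e-04). Its elemental diet libraries differed by several fold among themselves, and its log2 fold change ran from -4.31 to -2.38 when single libraries were left out. Gzmk overlaps Esm1, which is read from the opposite strand, and reads of the pair may be mixed, since strand use in counting is not stated.

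Gzma and Gzmb, the main granzymes of NK cells, were not called lower. Gzma had 2.39, 1.43 and 1.21 CPM with elemental diet, against 2.66, 2.10 and 2.06 CPM with saline. Elemental diet replicate 1 lay within the saline range and the other elemental diet libraries below it (log2 fold change -0.44, standard error 0.28, edgeR adjusted p = 0.169). Gzmb had 2.06, 2.25 and 1.64 CPM with elemental diet, against 2.54, 2.82 and 2.96 CPM with saline. Its groups did not overlap, but the gap was small (log2 fold change -0.48, standard error 0.22, edgeR adjusted p = 0.0592). Gzma was called lower without elemental diet replicate 1 (adjusted p = 0.0189), with upper quartile scaling (0.0400) and without composition scaling (0.0344). Gzmb was called lower on unique reads (adjusted p = 0.0359), on exon reads (0.0401), with upper quartile scaling (0.00700) and without composition scaling (0.00542). A small fall of either is not settled.

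**Figure D3:**
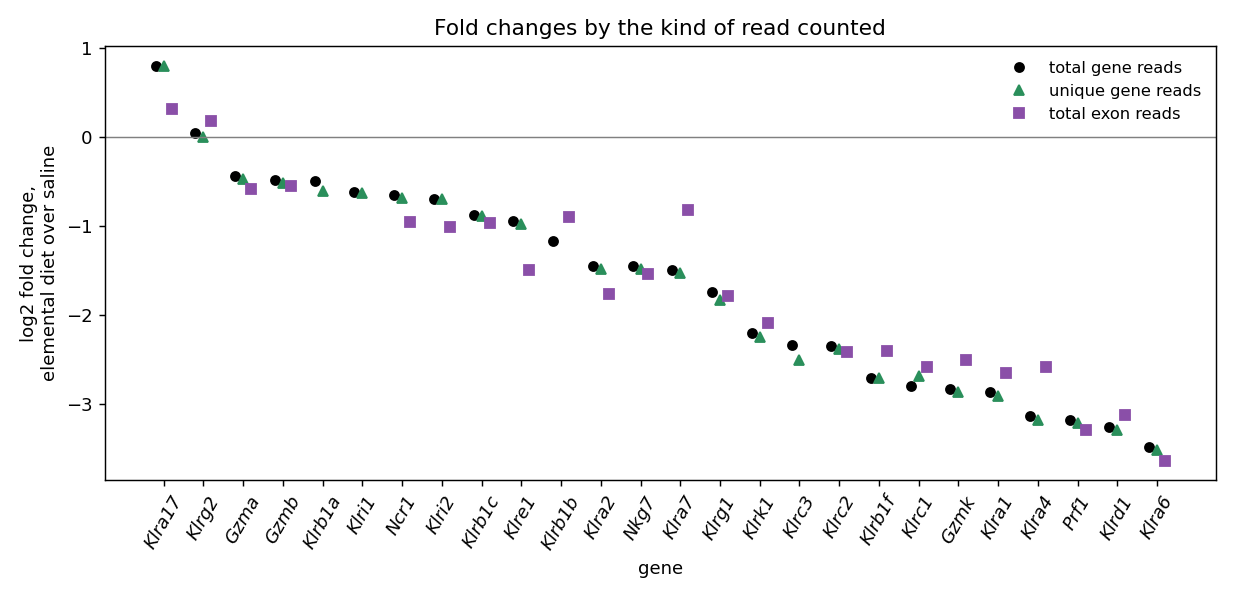
Log2 fold changes (elemental diet over saline) of the tested genes when total gene reads, unique gene reads or total exon reads were counted; a missing symbol means too few reads of that kind. Unique reads gave nearly the same values as total reads, and exon reads moved Klra7 most among the genes that fell, with -0.82 on exon reads and -1.49 on total reads.

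Unique reads gave the same number of falls as total reads. Of 25 genes tested on unique reads 19 fell and 0 rose, where 41.1% of all genes were called lower and 38.8% higher, 79.9% in all. On exon reads 17 of 23 fell and 0 rose, against 40.7% and 38.6% of all genes, 79.3% in all. Over all libraries 7 of the 32 genes had under 90% unique reads, 3 of them among the 6 genes that were not tested. The receptor cluster holds close copies: of the promoter windows, those of Klra9 and Klra3 matched at 90.3% of 300 bases, those of Klra4 and Klra8 at 86.3%, and those of Klrc3 and Klrc2 at 85.3%. Likeness of these windows does not measure how reads are shared. Over all libraries 98.3% of Klra4 reads and 98.8% of Klrc3 reads were unique, but 53.2% of Klra9 reads.

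Ratios of reads within a library do not depend on the scaling between libraries. Of 4 ratios tested, 0 passed the threshold after adjustment, and with 3 libraries a group none could. For Ncr1 to Cd3e, an NK receptor gene against a gene of the T cell receptor complex, the ratio was 0.185, 0.238 and 0.173 with elemental diet and 0.0535, 0.0340 and 0.0366 with saline. Every elemental diet library was above every saline library, 4.86-fold on the geometric mean (exact permutation test, two-sided, p = 0.1, adjusted p = 0.2 over 4 ratios). The smallest p that 3 against 3 libraries allow is 0.1. The ratio of Klrk1 to Klrd1 was 0.958, 1.01 and 0.596 with elemental diet and 0.433, 0.404 and 0.399 with saline (2.02-fold, exact p = 0.1, adjusted p = 0.2). That of Klrg1 to Ncr1 was 0.462, 0.320 and 0.256 with elemental diet and 0.433, 0.985 and 0.908 with saline, with overlap between the groups (exact p = 0.2, adjusted p = 0.267). Gzmb to Gzma was 0.862, 1.57 and 1.35 with elemental diet and 0.957, 1.34 and 1.43 with saline, and the groups lay over each other (exact p = 1). Ratios looked at after the values were seen have no test: Prf1 to Gzmb was 0.875, 0.667 and 1.0 with elemental diet and 5.15, 5.17 and 5.86 with saline. Klrd1 to Ncr1 was 2.44, 1.86 and 2.28 with elemental diet and 9.87, 15.8 and 15.4 with saline.

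**Figure D4:**
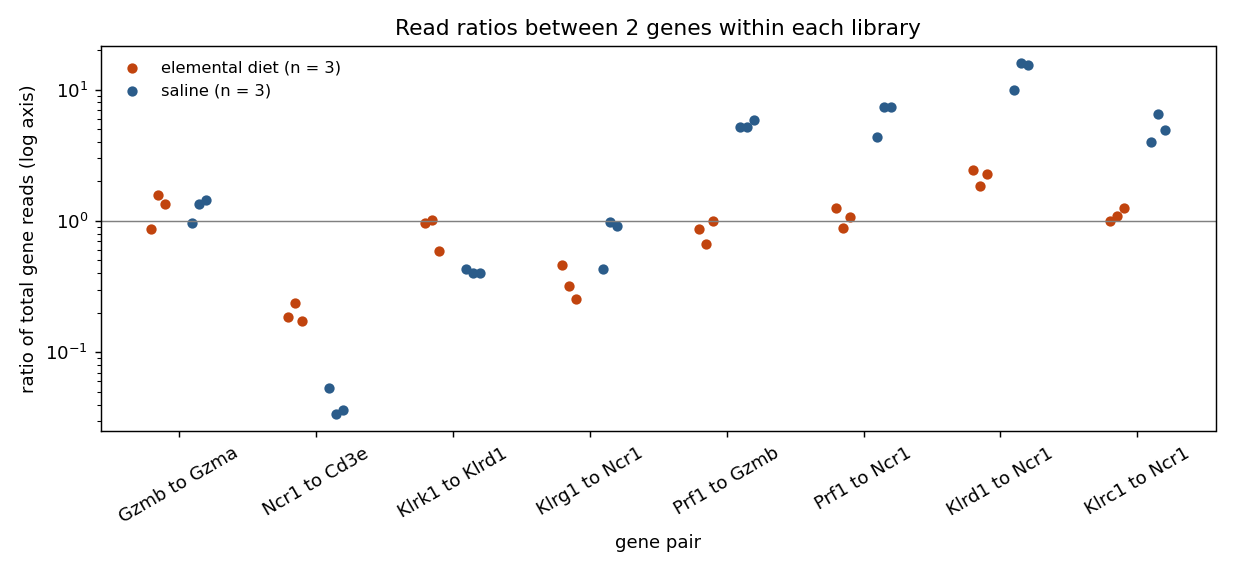
Ratio of total gene reads (log axis) between 2 genes in each library, elemental diet (n = 3) left and saline (n = 3) right. Prf1 to Gzmb lies between 0.667 and 1.0 with elemental diet and between 5.15 and 5.86 with saline, while the groups lie over each other for Gzmb to Gzma.

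Related genes give the setting of these values. All 12 T cell markers fell (median log2 fold change -2.99), where 40.2% of all genes tested were called lower. Cd8b1 and Cd8a, the chains of the CD8 coreceptor, fell most, at -3.88 and -3.58. Cd3e stood at 7.90 ± 0.836 CPM with elemental diet and 59.5 ± 3.97 CPM with saline (SD, n = 3). The log2 fold changes of Klrd1, Prf1, Klrc1, Klrb1f, Gzmk, Klra1, Klra4 and Klra6 lay within the range of the 12 T cell markers (-2.40 to -3.88). Those of the other tested genes of the set did not, but that edge is not sharp. Klrc2 (-2.35, standard error 0.21) and Klrc3 (-2.34, standard error 0.62) lay just outside it, and on exon reads Klrc2 had -2.42. The Gzmk value carries the doubt about Esm1 reads given above. Of 5 gamma delta T cell markers 3 fell and 1 rose, where 40.2% of all genes tested were called lower and 38.0% higher, 78.1% in all. Nothing is read from that count. Trdc, the delta chain constant gene, was not called, at 6.62 ± 0.295 CPM after elemental diet and 6.30 ± 0.869 CPM after saline. The gamma chain gene Tcrg-C1 rose to 12.7 ± 1.64 CPM after elemental diet, against 6.72 ± 0.399 CPM after saline (log2 fold change 0.92, edgeR adjusted p = 1.75e-05), and Tcrg-C4 had a log2 fold change of -1.78. The part of T cells in the levels of the shared genes was not tested.

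The counts for 5 further lists stand against the 40.2% of all genes tested that were called lower, the 38.0% called higher and the 78.1% called in all. Of 19 other receptor genes of NK cells 17 fell and 2 rose (median log2 fold change -1.67, against -0.08 for all genes tested). Slamf6, an activating receptor of lymphocytes, and Cd27, a costimulatory receptor of T and NK cells, fell most, with log2 fold changes of -3.01 and -2.66. The 2 that rose were Itga2, the integrin chain CD49b of NK cells and platelets, at 51.0 ± 8.52 CPM after elemental diet and 12.4 ± 1.92 CPM after saline, and Cd226, an adhesion receptor also found on platelets, at 67.5 ± 10.3 and 22.9 ± 1.76 CPM. Of 18 adaptors and kinases downstream of the receptors 16 fell, 1 rose and 1 was not called (median -1.41). Zap70, a kinase of T and NK cells, and Sh2d1a, the adaptor SAP, had log2 fold changes of -3.09 and -3.03, and the phosphatase gene Ptpn11 had 1.36. Tyrobp (DAP12) and Hcst (DAP10), the adaptors of activating NK receptors, had log2 fold changes of -1.11 and -2.20.

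Of 14 transcription factor genes of NK and cytotoxic T cells 12 fell and 2, Nfil3 and Zeb2, were not called (median -2.06, where 40.2% of all genes were called lower). Eomes, which NK cells and memory CD8 T cells need, fell most, to 0.835 ± 0.442 CPM with elemental diet, against 12.4 ± 0.785 CPM with saline (log2 fold change -3.88, standard error 0.28, edgeR adjusted p = 1.47e-07). Ikzf3, a factor of lymphocytes, was next at -2.74, and Tbx21 (T-bet) had -2.68. Runx3 was lower by less, at 53.9 ± 4.04 CPM with elemental diet and 90.4 ± 3.36 CPM with saline.

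On the ligand side, of 15 tested genes of 18 found 13 fell, 1 rose and 1, Cdh1, was not called (median -1.20, where 40.2% of all genes were called lower and 38.0% higher). Clec2g, whose product is a ligand of NKR-P1 receptors, and Raet1e, a ligand of NKG2D, fell most among those of at least 1 CPM, with log2 fold changes of -2.72 and -2.71. Ulbp1, another NKG2D ligand, was the member that rose, at 107 ± 2.0 CPM with elemental diet and 18.9 ± 1.57 CPM with saline (log2 fold change 2.50, standard error 0.06, edgeR adjusted p = 2.71e-13). Of 20 other granzyme, granule and release genes 13 could be tested, of which 8 fell, 3 rose and 2 were not called (median -0.72). With 78.1% of all genes called in one direction or the other, calls in both directions are common, and nothing about this list is read from its count. Gzmm, a granzyme of NK cells, and Ctsw, a cathepsin of cytotoxic cells, had log2 fold changes of -3.03 and -2.63. Stx11, a syntaxin needed for granule release, had 1.84, and the small rises of Rab27a (0.32) and Unc13d (0.27) depended on the scaling, with 0.01 and -0.04 without composition scaling. Gzmd, Gzme, Gzmf and Gzmg had no read in any library. Ifng, the interferon gamma gene, had 12 reads after elemental diet and 28 after saline and was not tested.

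**Figure D5:**
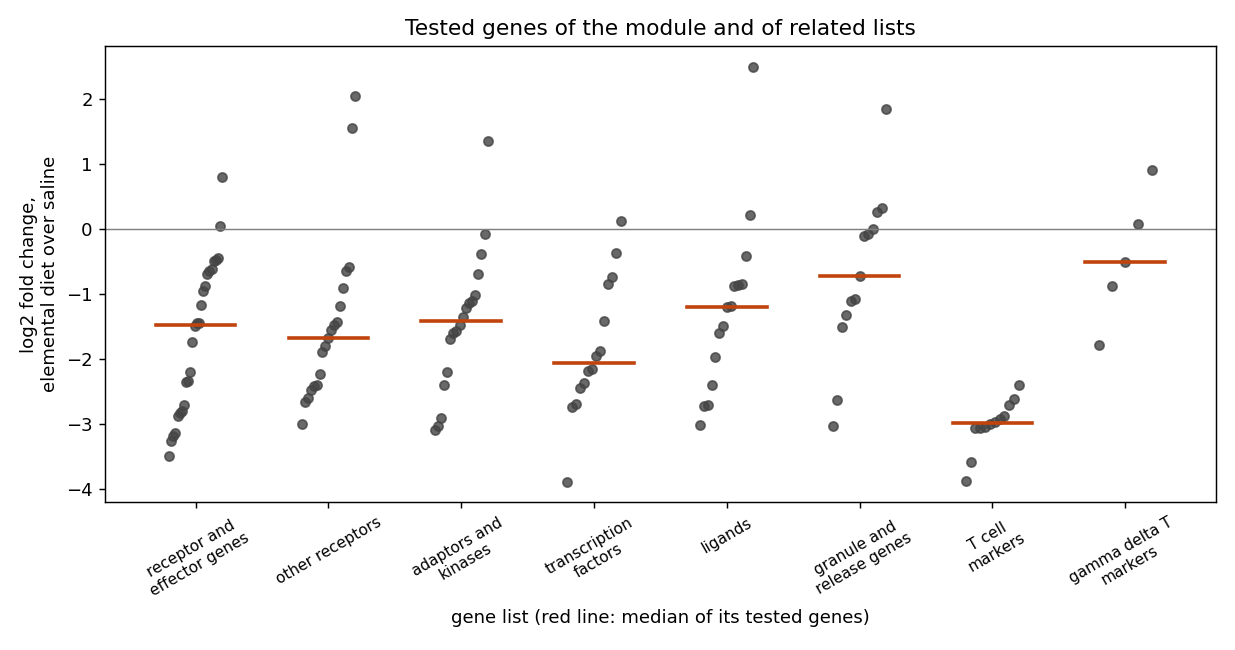
Log2 fold changes (elemental diet over saline) of the tested genes of the receptor and effector set and of 7 related lists; each point is a gene and red lines are medians. The set spans 0.80 to -3.49, while the 12 T cell markers lie between -2.40 and -3.88.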

How the data were processed

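Bulk RNA-seq was measured in 6 libraries, grouped by their titles. Per the file headers, the authors deposited whole-number read counts per gene (total, unique, exon and intron), TPM, RPKM (not used here) and, as fractions, the unique share of exon reads and the intron share. Total gene reads equal exon plus intron reads. Per the labels' protocols, poly(A) RNA was read as pairs of 75 bp. The submitters' processing notes name GRCh37 and GRCm38; the sources used here do not name the aligner, the counter or the strand setting. All 32 genes matched GENCODE M21 coordinates.

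Counts were tested with edgeR 4.0.16 in R 4.3.3 (TMM, filterByExpr, glmQLFit with robust estimation, glmQLFTest, Benjamini-Hochberg adjustment at 0.05) over 18303 genes. A check on simulated data changed only a small part of the genes, balanced up and down. It does not cover a change as wide as the one in these libraries. The SE is the log2 fold change over the square root of F. Alternatives used unique or exon reads, other scalings, no filter, DESeq2 1.42.0, a replicate block and leaving out each library. Ratios used exact permutation tests in scipy 1.17.1. Every gene of the set is accounted for. Those of at least 1 CPM on average, with Ncr1, Klrk1, Klrd1, Klrb1c, Gzma, Gzmb, Gzmk, Prf1 and Nkg7, have values per library. From each related list up to 2 called genes of at least 1 CPM with the largest rise and 2 with the largest fall were named; other genes of these lists were picked with their values in view. The genes and lists were chosen with earlier results of these data known.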

Additional observations from a re-analysis of the deposited data

How the results depend on the processing

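Where 19 genes of the set fell, 17 to 22 were called lower under the 14 alternatives, not always including every one of the 19, and 18 to 20 when single libraries were left out; 0 genes were called higher, except 1 (Klra17) without saline replicate 1. The number of genes called lower was 22 both with upper quartile scaling and without composition scaling, which moved the all-gene median log2 fold change to -0.35 and -0.39 and the share of all genes called lower to 49.5% and 50.6% (higher, 30.6% and 29.5%). Of 360 log2 fold changes recomputed for single genes, 337 kept their direction and side of the threshold, 10 gained a call, 8 lost it and 5 turned sign. The 5 that turned sign were all of Klrg2 (0.04 in the main test, not called): -0.23 with upper quartile scaling, -0.26 without composition scaling, and 3 of the values with single libraries left out, which ran from -0.17 to 0.23. The log2 difference in the ratio of Gzmb to Gzma, near 0 in the main test, was 0.082 on exon reads and ran from -0.18 to 0.25 when single libraries were left out. The other ratios kept their direction, at 2.14 to 2.48 for Ncr1 to Cd3e, 0.87 to 1.26 for Klrk1 to Klrd1 and -1.49 to -0.90 for Klrg1 to Ncr1.

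Libraries with the same replicate number did not deviate together (correlations of 0.117, -0.00799 and 0.0578 across genes), so the numbers were not taken to pair the samples. Adding a replicate block left 19 falls and 0 rises. Depth limits the genes with few reads: 6 of the 32 could not be tested.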
